A study of Mus musculus with 8 samples.

Results

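The 41 genes described here drive or mark cell division, from the D cyclins of early G1 to the kinases and motors of mitosis. They were taken as a list of proliferation genes that was chosen with earlier results of these data known. The list holds 8 G1 and G1/S regulators, 13 genes of S phase and DNA replication and 20 genes of G2/M and mitosis, among 41214 genes counted in each library. All 41 members passed the filter on low counts in every comparison. The RNA came from whole bone marrow (BM) of 8 C57Bl6 mice, 2 in each of 4 groups, and all 8 mice were altered at the Gfi1 locus, which encodes a transcriptional repressor needed for neutrophil formation. KO mice lack Gfi1, and KD mice carry a knock-in of the human GFI1 cDNA whose expression is reduced by a neomycin cassette. These alleles are carried by all cells of the mouse, so no cell type was targeted. Ages were 39 and 42 days for young KD, 187 and 78 days for sick KD, 48 and 44 days for young KO and 158 and 101 days for old KO mice. The labels give AML for the sick KD mice and no AML for the old KO mice, whereas the study's text describes a myeloproliferative neoplasm, and the group names of the study are used here. Mice are named by group and age, and no mouse with unaltered Gfi1 was among these libraries.

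A cell enters the cycle when D cyclins with CDK4 or CDK6, and then E cyclins with CDK2, phosphorylate the retinoblastoma protein and release E2F factors. E2F factors turn on the genes of DNA replication, among them the MCM helicase, the loading factors CDC6 and CDT1 and the enzymes that make nucleotides. Genes of G2 and mitosis are mostly held down in G1 by the DREAM complex at a promoter element called the CHR, often next to boxes bound by NF-Y, and are turned on later by B-MYB and FOXM1. In bone marrow, early erythroid cells, early B cells and myeloid progenitors are among the dividing populations.

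Promoter sequence was looked at because the 3 classes are known to be controlled through different elements. RefSeq promoter windows (GRCm38.p6, 250 bases before and 50 bases after the start) were found for 32 of the 41 members, in 35 windows. Each motif was searched on both strands. The E2F motif was searched as TTTCCCGC, TTTGGCGC, TTTGCCGC or TTTCGCGC, the CHR as TTTGAA or TTCGAA, and the NF-Y box as CCAAT. Matches of the same motif overlapped in 3 members and matches of different motifs in 2. The 4 promoters printed here were chosen among members whose promoter holds a searched motif. They illustrate the elements and are no test of a contrast between classes. Cdc6 is a replication gene that fell in sick KD mice, Mcm6 is the replication gene with the most E2F matches before its start, and Mki67 and Top2a are the mitotic members with the most counts. Capitals mark the E2F matches in Cdc6 and Mcm6 and the CHR matches in Mki67 and Top2a. Each sequence ends at the base before the RefSeq start and lies outside annotated exons. The Cdc6 stretch lies within the annotated span of its gene, which begins at base 98907801.
Cdc6, chr11:98907991-98908150, plus strand: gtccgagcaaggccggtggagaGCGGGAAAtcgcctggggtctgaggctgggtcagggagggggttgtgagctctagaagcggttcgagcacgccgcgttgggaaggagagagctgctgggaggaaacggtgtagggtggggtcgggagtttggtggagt
Mcm6, chr1:128359706-128359885, minus strand: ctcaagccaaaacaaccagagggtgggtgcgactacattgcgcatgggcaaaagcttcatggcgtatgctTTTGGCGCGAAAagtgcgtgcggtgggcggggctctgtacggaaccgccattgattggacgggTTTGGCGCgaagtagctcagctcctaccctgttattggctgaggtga
Mki67, chr7:135716380-135716559, minus strand: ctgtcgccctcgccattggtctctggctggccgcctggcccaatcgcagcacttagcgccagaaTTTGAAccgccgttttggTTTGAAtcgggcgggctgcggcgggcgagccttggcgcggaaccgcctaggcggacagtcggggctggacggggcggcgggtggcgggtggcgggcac
Top2a, chr11:99024190-99024369, minus strand: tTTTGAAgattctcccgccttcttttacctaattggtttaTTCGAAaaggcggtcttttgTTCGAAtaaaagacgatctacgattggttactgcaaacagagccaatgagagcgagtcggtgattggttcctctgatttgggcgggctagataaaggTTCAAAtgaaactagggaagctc

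The E2F match of Cdc6 begins 138 bases before the start. Mcm6 has matches beginning at -110, -106 and -47, of which the first pair overlap. Mki67 has CHR matches at -116 and -98, and Top2a at -179, -140, -120 and -23.

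Across the members, 6 of 11 S phase genes with a window (54.5%) and 2 of 5 G1 genes had an E2F match, against 1 of 16 mitotic genes (6.25%), which was Cdk1. Of all 32851 promoter windows, 2.26% had one, and of the 13118 windows of genes tested for expression 3.86%. The CHR letters were found in 13 of 16 mitotic genes (81.2%), 2 of 11 S phase genes (18.2%) and 1 of 5 G1 genes, against 19.2% of all windows and 14.3% of windows of tested genes. NF-Y boxes were found in 15 of 16 mitotic genes (93.8%), 8 of 11 S phase genes (72.7%) and 3 of 5 G1 genes, against 37.4% of all windows. In the 250 bases before the start alone, CHR letters were found in 8 of 16 mitotic genes and the E2F motif in 4 of 11 S phase genes (36.4%). Such matches describe the letters only and do not show binding.

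**Figure D1:**
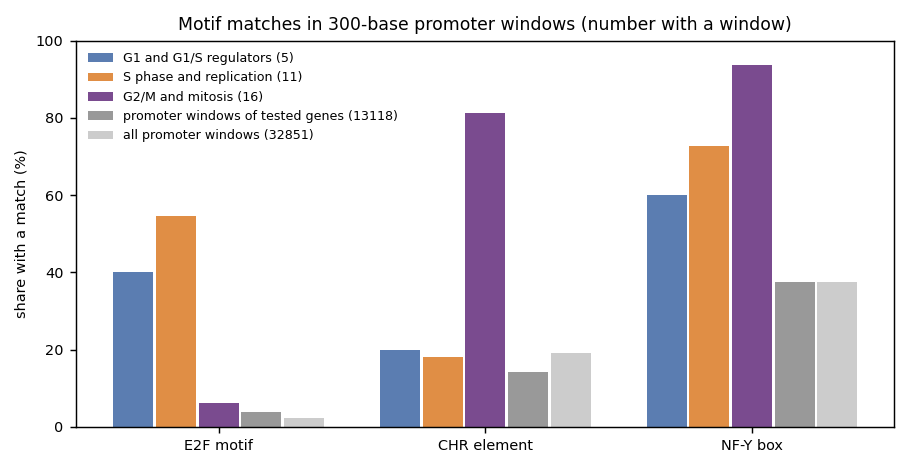
Share (%) of members with a motif match in the 300-base promoter window, by class, beside the windows of tested genes and all windows. The numbers with a window are in the legend. E2F matches reach 54.5% in S phase genes and 6.25% in mitotic genes, and CHR matches 18.2% and 81.2%.

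Libraries held 26642067 to 42679114 counts on genes, and levels are CPM values (counts scaled to a common library size) normalized by TMM, which scales libraries by the bulk of their genes. Reads that matched no counted gene feature made up 42.0% and 38.8% of uniquely aligned reads in the sick KD mice and 26.9% to 33.8% in the other 6. Whether they lay between genes or in parts of genes that were not counted is not given. Mouse Gfi1 stood at 5.49 to 7.15 CPM in the 4 libraries labelled KD and 13.3 to 29.7 CPM in the 4 labelled KO, so its counts do not check the labels, and directions rest on them. Some cell type marker lists separated the sick KD mice from the others, and some did not. The summed level of 10 erythroid markers was 530 to 649 CPM in sick KD mice and 1100 to 2660 CPM in the other 6, and that of 4 stroma markers 16.7 to 20.1 CPM against 72.4 to 141 CPM. Early B cell markers (10 genes) were at 10.3 to 60.7 CPM in sick KD and 71.3 to 132 CPM in old KO mice, against 455 to 866 CPM in the 4 young mice. Early myeloid granule markers (4 genes) were at 5930 to 6720 CPM in sick KD and 4080 to 5300 CPM in the other mice. Monocyte markers (6 genes) were at 8830 to 9310 CPM in sick KD and 6090 to 8210 CPM in the other mice. This sum hides differences between the 6 genes. In sick KD against young KD mice 5 had log2 fold changes above 0 and 1 below, from -0.92 to 0.64. In old KO against sick KD mice 3 were above 0 and 3 below. T and NK cell markers (5 genes) were at 11.8 to 14.4 CPM against 24.6 to 32.3 CPM. Mature neutrophil markers overlapped (32.7 to 85.9 CPM in sick KD, 42.7 to 84.6 CPM in the others). So did stem and progenitor (206 to 243 CPM, and 160 to 267 CPM) and megakaryocyte markers (74.2 to 140 CPM, and 56.3 to 216 CPM). No marker was at 0 in any mouse. In whole BM, fewer cells of a type and less RNA per cell cannot be told apart.

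**Figure D2:**
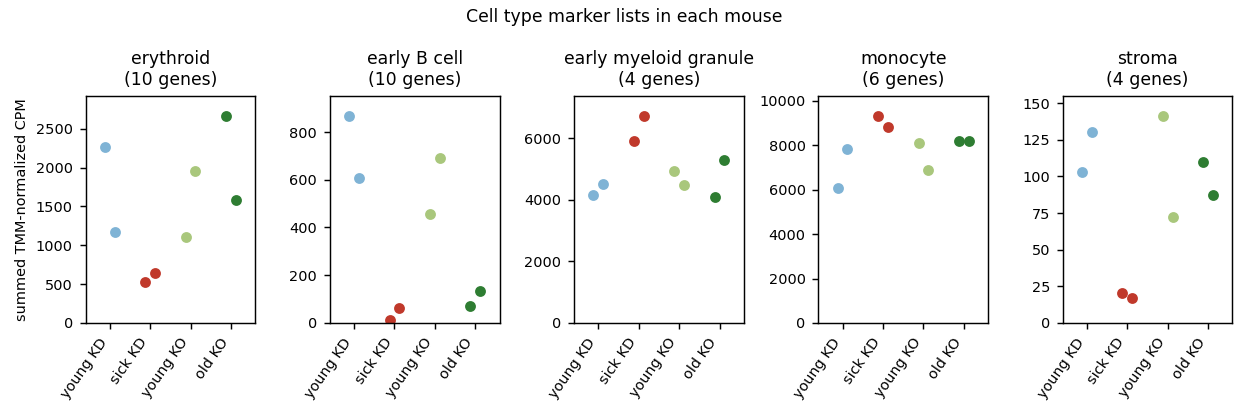
Summed TMM-normalized CPM of 5 marker lists in each mouse (points, coloured by group, linear axes from 0). The sick KD mice sit lowest for the erythroid list (530 and 649 CPM), the early B cell list (10.3 and 60.7 CPM) and the stroma list (20.1 and 16.7 CPM).

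Class levels differed between mice in different ways. For each mouse, the mean of log2(CPM + 1) over a class was set against the mean of the 4 young mice. For the G1 genes this difference was -0.44 in the 187-day and -0.36 in the 78-day sick KD mouse, -0.07 and -0.06 in the old KO mice, and between -0.12 and 0.11 in the young mice. For the S phase genes it was -0.26 and -0.20 (sick KD), -0.07 and -0.01 (old KO), and -0.08 to 0.05 in young mice. For both classes the sick KD mice lay below all others, and the old KO mice lay within the young range. For the mitotic genes it was -0.19 and -0.23 (sick KD), -0.15 and -0.17 (old KO), and -0.04 to 0.03 in young mice, so both older groups lay below all 4 young mice. With 2 mice against 2, the smallest two-sided p that an exact permutation test of such a mean allows is 0.333, so none was run. The genes of a class share their libraries and are not replicates.

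**Figure D3:**
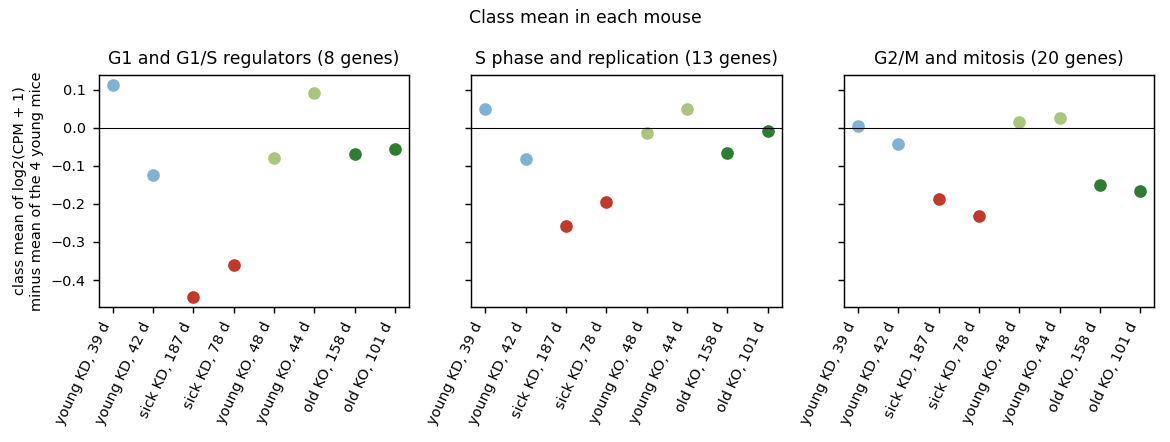
Mean log2(CPM + 1) of each class in each mouse, minus the mean of the 4 young mice (points, coloured by group, ages in days). Sick KD mice are lowest for G1 (-0.44 and -0.36) and S phase genes (-0.26 and -0.20), while for mitotic genes sick KD (-0.19 and -0.23) and old KO mice (-0.15 and -0.17) both sit below the young mice.

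Sick KD mice were compared with young KD mice, which share the genotype. The sick mice were also older, so illness and age cannot be told apart here. Of the members, 8 were lower in sick KD mice by edgeR's quasi-likelihood test (adjusted p under 0.05 over all genes, Benjamini-Hochberg). They were 4 G1 genes (Ccnd2, Ccne1, Cdk2 and E2f2), 2 S phase genes (Cdc6 and Rrm1) and 2 mitotic genes (Bub1b and Cdca8). This was 8 of 41 members, where 11.4% of all 14656 tested genes were called lower. No member was called higher by edgeR (9.45% of all genes were), 0 had a higher level at an unadjusted p under 0.05, and DESeq2 called 12 members lower and 0 higher (13.2% and 10.9% of all genes). The median log2 fold change was -0.49 for G1, -0.22 for S phase and -0.18 for mitotic genes, beside 0.01 for all tested genes. With 1 mouse left out these medians ranged from -0.62 to -0.29, -0.30 to -0.14 and -0.27 to -0.15, the G1 median being -0.29 without the 39-day young KD mouse, the S phase median -0.14 without the same mouse and the mitotic median -0.27 without the 187-day sick KD mouse. With the GC, length and span trend of each library removed they were -0.39, -0.11 and -0.17, so the S phase and mitotic medians changed order. The log2 fold change was below 0 in 39 of 41 members, against 48.8% of all genes, and the sick KD mice lay below both young KD mice without overlap in 26 members, against 32.4%. The count of 8 was 0 without the 39-day young KD mouse, 4 without the 187-day sick KD mouse and 5 without the 42-day young KD mouse. Erythroid and early B cell markers were lower in 10 of 10 genes each (median log2 fold change -1.80 and -3.92), and 3 of 4 early myeloid granule markers were higher. Stroma markers were lower in 4 of 4 genes and T and NK cell markers in 3 of 5. Of 6 monocyte markers 1 was higher and 1 lower, and of 6 mature neutrophil markers 1 was lower. Of 7 stem and progenitor markers 1 was higher, and 0 of 5 megakaryocyte markers were called. The part of these markers in the members' change was not tested.

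Old KO mice were compared with sick KD mice as the older mice without the disease label. These groups also differ in genotype, so illness and genotype cannot be told apart. In old KO mice 4 members were higher, the G1 genes Ccne1 and E2f2 and the S phase genes Cdc6 and Rrm1. This was 4 of 41 members, where 9.93% of all 14470 tested genes were called higher, so the share of members was close to the background. No member was called lower by edgeR (8.22% of all genes were), 1 was lower at an unadjusted p under 0.05, and DESeq2 called 8 members higher and 1, Mki67, lower (11.5% and 10.1% of all genes). The median log2 fold change was 0.41 for G1, 0.20 for S phase and 0.02 for mitotic genes, beside -0.01 for all genes. With 1 mouse left out they ranged from 0.35 to 0.43, 0.14 to 0.30 and -0.01 to 0.10, the S phase median being 0.30 without the 78-day and the mitotic median 0.10 without the 187-day sick KD mouse, and with trends removed the S phase median was 0.07. It was above 0 in 29 of 41 members, against 49.5% of all genes, and old KO mice lay above both sick KD mice in 20 members, against 32.5%. Of the 20 mitotic genes 0 were called by edgeR, 6 had an unadjusted p under 0.05 (35.8% of all genes did), and DESeq2 called 3. The count of 4 was 0 without the 187-day sick KD mouse or without the 158-day old KO mouse, 1 without the 101-day old KO mouse and 5 without the 78-day sick KD mouse. Of the 4, Ccne1, Cdc6 and Rrm1 were called in 0 of the 4 fits with 1 mouse left out, and E2f2 in 2. All 10 erythroid markers were higher in old KO mice (median log2 fold change 2.05), and 0 of 10 early B cell markers were called by edgeR with 3 at an unadjusted p under 0.05. Called higher were 2 of 4 stroma, 2 of 5 T and NK cell, 1 of 6 monocyte and 1 of 6 mature neutrophil markers. Of 4 early myeloid granule markers 1 was called lower, and 0 of 7 stem and progenitor and 0 of 5 megakaryocyte markers were called. The part of these markers was not tested. These comparisons share the sick KD mice, so their fold changes are not independent of each other.

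**Figure D4:**
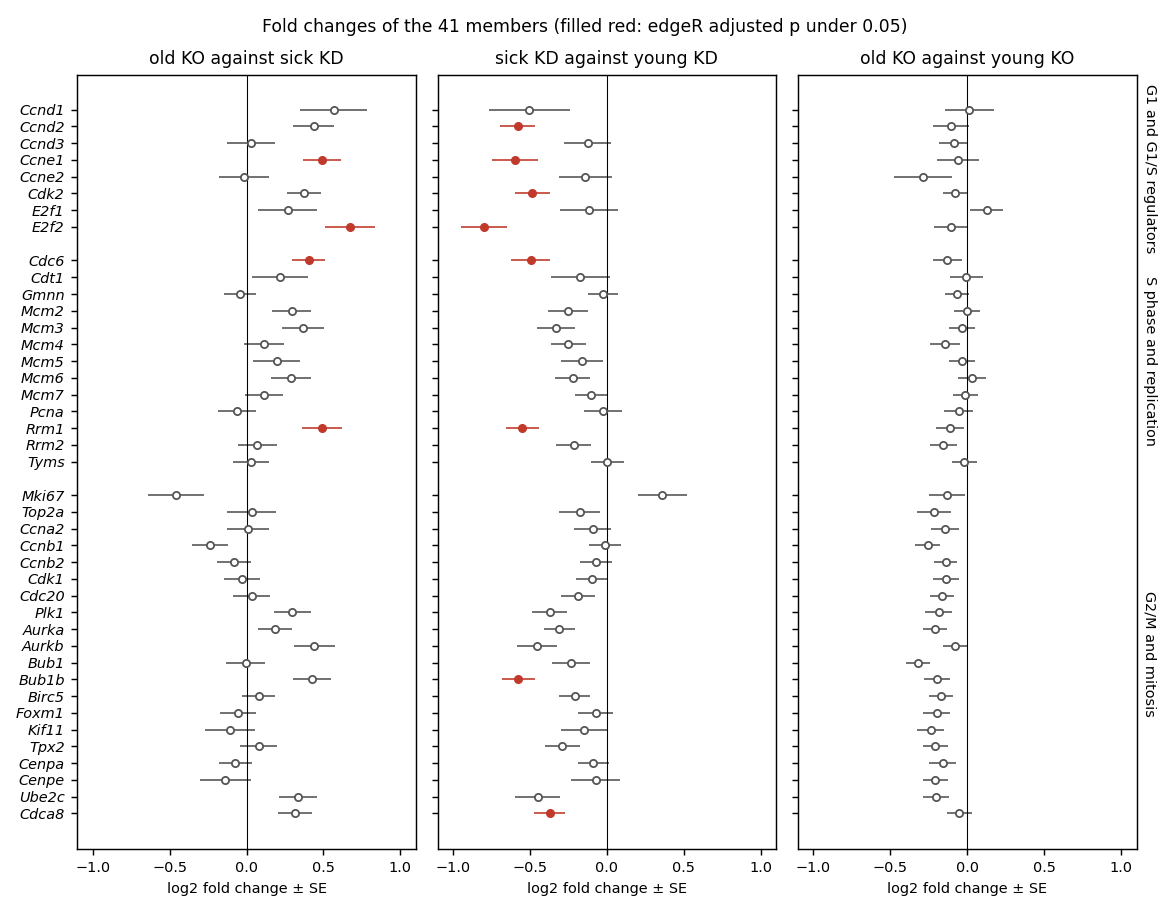
Log2 fold change ± SE of each member in 3 comparisons, grouped by class. Filled red points have an edgeR adjusted p under 0.05. The called members lie on the side of lower levels in sick KD mice, Mki67 lies on the opposite side (-0.46 and 0.36), and the 20 mitotic genes all lie below 0 in old KO against young KO mice.

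Among the G1 regulators, E2f2, a transcription factor that activates replication genes and has a known role in erythroid maturation, had the largest log2 fold change in both comparisons with sick KD mice. It stood at 134 and 173 CPM in the 187-day and 78-day sick KD mice, 259 and 229 CPM in the old KO mice, 248 and 276 CPM in the young KO mice and 275 and 255 CPM in the young KD mice. Both sick KD mice lay below all other 6. Its log2 fold change was -0.80 ± 0.15 (SE) in sick KD against young KD mice, and its level fell by 42.5% (edgeR adjusted p = 0.0174, DESeq2 adjusted p = 6.55e-06), and 0.67 ± 0.16 in old KO against sick KD mice (edgeR adjusted p = 0.0326). E2f1, the related activator, was not called, with 18.9 and 27.4 CPM in sick KD mice, 28.7 and 27.0 CPM in old KO and 24.0 to 26.9 CPM in young mice. The groups overlapped, and its log2 fold change was -0.12 ± 0.19 in sick KD against young KD mice (edgeR adjusted p = 0.687). With 1 mouse left out that value ranged from -0.41 to 0.13, and the difference between E2f1 and E2f2 was not tested.

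Cyclin E1, encoded by Ccne1, activates CDK2 at the entry into S phase. It was at 32.2 and 29.7 CPM in sick KD mice, 45.9 and 41 CPM in old KO, 40.1 and 50.3 CPM in young KO and 52.3 and 40.9 CPM in young KD mice. The sick KD mice were again below all others, by -0.60 ± 0.15 against young KD (edgeR adjusted p = 0.0368), and old KO mice were above them by 0.49 ± 0.12 (edgeR adjusted p = 0.0369). After removal of each library's GC, length and span trend, the latter was 0.34 and was no longer called (edgeR adjusted p = 0.0742). Its relative Ccne2 had 66.3 and 54.0 CPM in sick KD mice, 52.3 and 66.4 CPM in old KO mice and 57.0 to 83.8 CPM in young mice, and these groups overlapped. The log2 fold change of Ccne2 in old KO against sick KD mice was -0.02 ± 0.16, and it became 0.38 (edgeR adjusted p = 0.0328) once each library's trend in GC content, length and span was removed. Cdk2, the kinase partner of the E cyclins, was at 68.2 and 72.7 CPM in sick KD mice and 90.7 to 104 CPM in the other 6. It fell by 28.5% in sick KD against young KD mice (log2 fold change -0.48 ± 0.11, edgeR adjusted p = 0.0312), and in old KO against sick KD mice its log2 fold change was 0.37 ± 0.11 (edgeR adjusted p = 0.0543).

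The D cyclins, which couple growth signals to CDK4 and CDK6, differed in level. Per kb of merged exons, Ccnd3 was at 25.5 to 33.4 CPM over the 8 mice, Ccnd2 at 2.52 to 3.95 CPM and Ccnd1 at 0.974 to 1.83 CPM, so the ranges of the 3 genes did not overlap. Ccnd2 had 24.3 and 23.7 CPM in sick KD mice and 30.2 to 37.2 CPM in the other 6, and it was lower against young KD mice by -0.58 ± 0.11 (edgeR adjusted p = 0.0195). In old KO against sick KD mice its log2 fold change was 0.44 ± 0.13 (edgeR adjusted p = 0.0617). Ccnd3, the abundant D cyclin, was at 224 and 288 CPM in sick KD mice, which overlaps the 258 to 293 CPM of the others. Ccnd1, with 4.59 and 5.57 CPM in sick KD mice and 5.70 to 8.60 CPM in the others, had a log2 fold change of -0.50 ± 0.26 against young KD mice and was not called (edgeR adjusted p = 0.213). Without the 39-day young KD mouse that value was -0.18.

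**Figure D5:**
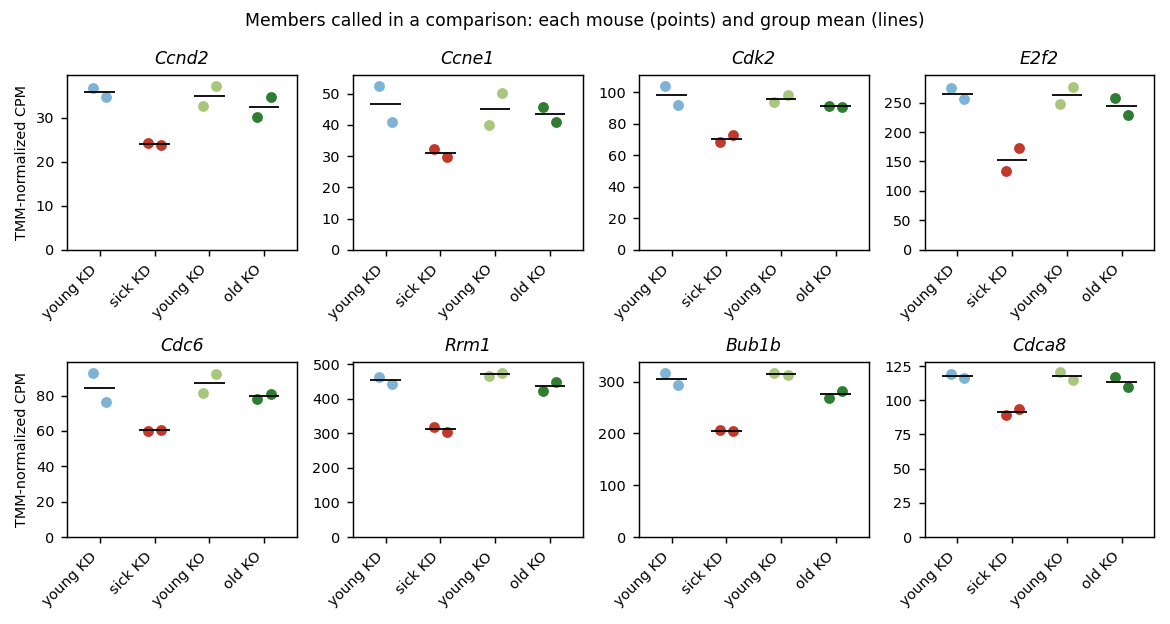
TMM-normalized CPM of the 8 members called in a comparison, in each mouse (points) with the group mean (line), on linear axes from 0. In all 8 genes both sick KD mice lie below the other 6, for example 134 and 173 CPM against 229 to 276 CPM for E2f2.

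Among the S phase genes, the large ribonucleotide reductase subunit Rrm1 had the largest log2 fold change in both comparisons with sick KD mice. It stood at 317 and 305 CPM in sick KD mice, 423 and 448 CPM in old KO, 466 and 474 CPM in young KO and 463 and 443 CPM in young KD mice. Sick KD mice lay below all others, with a log2 fold change of -0.55 ± 0.11 against young KD (edgeR adjusted p = 0.0198), and old KO mice above them by 0.49 ± 0.13 (edgeR adjusted p = 0.0439). Rrm2, the small subunit of the same enzyme, was at 207 and 226 CPM in sick KD mice and 225 to 262 CPM in the others, with a log2 fold change of -0.22 ± 0.11 (edgeR adjusted p = 0.215). Rrm1 and Rrm2 therefore differed in call, but the difference between the genes was not tested.

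Cdc6, which loads the MCM helicase on origins, was at 59.8 and 60.8 CPM in sick KD mice, 77.9 and 81.2 CPM in old KO, 81.6 and 92.2 CPM in young KO and 92.7 and 76.2 CPM in young KD mice. It was lower in sick KD against young KD mice by -0.49 ± 0.13 (edgeR adjusted p = 0.0397) and higher in old KO against sick KD mice by 0.40 ± 0.11 (edgeR adjusted p = 0.0420). Its loading partner Cdt1 was at 44.2 CPM in the 187-day and 64.8 CPM in the 78-day sick KD mouse, against 57.0 to 68.0 CPM in the others. The sick KD mice thus disagreed for Cdt1, as they did for E2f1 and Ccnd3. Gmnn, which encodes the CDT1 inhibitor geminin, ranged from 67.4 to 72.6 CPM over all 8 mice, the narrowest range of the members relative to its level.

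The 6 helicase subunits Mcm2 to Mcm7 had log2 fold changes from -0.10 (Mcm7) to -0.33 (Mcm3) in sick KD against young KD mice, and 0 of them were called by edgeR, 1 (Mcm3) having an unadjusted p under 0.05. Mcm3 had 226 and 261 CPM in sick KD mice and 292 to 324 CPM in the other 6, with an edgeR adjusted p of 0.102 and a DESeq2 adjusted p of 0.0458 against young KD mice. Mcm2 (158 and 179 CPM in sick KD, 184 to 215 CPM in the others) and Mcm6 (356 and 364 CPM, and 398 to 451 CPM) also did not overlap. Mcm4, Mcm5 and Mcm7 had log2 fold changes of -0.25, -0.16 and -0.10 against young KD mice. For Mcm7 the sick KD mice also lay below all others (265 and 282 CPM, and 285 to 303 CPM). For Mcm4 they lay below both young KD mice but overlapped the old KO mice, and for Mcm5 they overlapped the young KD mice. Pcna, the sliding clamp, was at 254 to 300 CPM and Tyms, the thymidylate synthase, at 78.4 to 87.5 CPM, and in sick KD against young KD mice both genes overlapped, with log2 fold changes of -0.03 ± 0.12 and 0.00 ± 0.11. The class thus ran from Rrm1 and Cdc6, which were called, to Gmnn, Pcna and Tyms, whose log2 fold changes stayed within their SE of 0.

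Among the mitotic genes, Bub1b, a kinase-like protein of the spindle checkpoint, had the largest log2 fold change in sick KD against young KD mice. It was at 207 and 205 CPM in sick KD mice, 269 and 282 CPM in old KO, 317 and 314 CPM in young KO and 316 and 294 CPM in young KD mice. It fell by 32.9% in sick KD against young KD mice (log2 fold change -0.58 ± 0.11, edgeR adjusted p = 0.0175), and in old KO against sick KD mice it differed by 0.42 ± 0.12 (edgeR adjusted p = 0.0551, DESeq2 adjusted p = 0.00472). Bub1, the checkpoint kinase itself, was at 108 and 89.9 CPM in sick KD mice, 97.9 and 99.1 CPM in old KO and 113 to 126 CPM in young mice. Both older groups lay below the young mice, and the sick KD and old KO groups overlapped.

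Aurora B, survivin, borealin and INCENP form the chromosomal passenger complex. Cdca8, which encodes borealin, was at 89.2 and 93.5 CPM in sick KD mice and 110 to 120 CPM in the others, and was lower against young KD mice by -0.37 ± 0.10 (edgeR adjusted p = 0.0444). Aurkb had 94.2 and 115 CPM in sick KD mice and 139 to 150 CPM in the others, without overlap, with a log2 fold change of -0.45 ± 0.13 (edgeR adjusted p = 0.0513, DESeq2 adjusted p = 0.00999). Birc5, which encodes survivin, differed less, with 97.8 and 101 CPM against 102 to 120 CPM and a log2 fold change of -0.21 ± 0.10.

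Mki67, the Ki-67 antigen carried by cycling cells, differed in the opposite direction without passing the edgeR test. It stood at 2808 CPM in the 187-day and 2100 CPM in the 78-day sick KD mouse, 1759 and 1800 CPM in old KO, 1836 and 2052 CPM in young KO and 1929 and 1875 CPM in young KD mice. Both sick KD mice lay above all others, but the 78-day mouse only just above the highest young KO mouse. The log2 fold change was 0.36 ± 0.16 against young KD mice (edgeR adjusted p = 0.155) and -0.46 ± 0.18 in old KO against sick KD mice (edgeR adjusted p = 0.121, DESeq2 adjusted p = 0.0310). Without the 187-day sick KD mouse these values were 0.14 and -0.24. Mki67 was also the most abundant member per kb, at 175 to 279 CPM, followed by Top2a, the DNA topoisomerase of dividing cells, at 141 to 189 CPM. The ranges of these 2 genes overlapped. The summed level of the mitotic class, which Mki67 leads, was 7215 and 6051 CPM in sick KD and 6578 to 7035 CPM in young mice, and did not follow the mean log2 level of the class.

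Cyclins and their kinase differed little. Ccnb1 was at 128 to 139 CPM in sick KD and young mice and 109 to 117 CPM in old KO mice, while Ccnb2 was at 138 to 162 CPM, Ccna2 at 323 to 399 CPM and Cdk1 at 150 to 176 CPM over the 8 mice. Their log2 fold changes in sick KD against young KD mice lay between -0.10 and -0.01. Of the mitotic kinases, Plk1 (60.9 and 68.5 CPM in sick KD, 75.5 to 91.2 CPM in the others) and Aurka (75.6 and 81.6 CPM, and 86.3 to 104 CPM) did not overlap. Their log2 fold changes against young KD mice were -0.37 ± 0.11 and -0.31 ± 0.10 (edgeR adjusted p = 0.0603 and 0.0769). Ube2c, the ubiquitin-conjugating enzyme of the anaphase-promoting complex, was at 64.3 and 76.3 CPM in sick KD mice and 85.7 to 106 CPM in the others, with -0.45 ± 0.15 (edgeR adjusted p = 0.0735). Cdc20, an activator of that complex, had 116 and 130 CPM in sick KD and 124 and 128 CPM in old KO mice, against 136 to 144 CPM in young mice. Foxm1, the mitotic transcription factor, the spindle proteins Tpx2 and Kif11 and the centromere proteins Cenpa and Cenpe had log2 fold changes of -0.07, -0.29, -0.15, -0.09 and -0.07 in the same comparison. For Kif11 and Cenpe the sick KD mice lay far apart, at 520 and 398 CPM and at 255 and 188 CPM.

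In old KO against young KO mice, which asks what differs with age without Gfi1, 0 of 41 members were called by edgeR or by DESeq2 (0.929% and 2.58% of all 14847 genes were), and 5 had an unadjusted p under 0.05 (8.86% of all genes did). Those 5 were mitotic genes with lower levels in old KO mice. Bub1 had a log2 fold change of -0.32 ± 0.08 (unadjusted p = 0.00703, edgeR adjusted p = 0.215), Ccnb1 -0.26, Kif11 -0.24, and Aurka and Tpx2 -0.21 each. The log2 fold change was below 0 in all 20 mitotic genes, against 50.2% of all genes, and 19 of them, all but Cdca8, did not overlap, against 18.9% of all genes. Their median was -0.19, from -0.32 to -0.05, while the G1 and S phase medians were -0.08 and -0.03. Of 47 other mitosis genes, 46 were below 0 and 0 were called by edgeR or DESeq2 with 8 at an unadjusted p under 0.05. All 10 early B cell markers were below 0 in old KO against young KO mice, with 8 called lower by edgeR and 10 by DESeq2. Their part was not tested.

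In young KO against young KD mice, which differ in Gfi1 dose before illness, 0 of 41 members were called by edgeR or DESeq2 (0.0404% and 0.179% of all 14839 genes were), and 0 had an unadjusted p under 0.05 (2.66% of all genes did). Log2 fold changes lay between -0.05 (Ccne1) and 0.13 (Ccne2), with class medians of -0.02, 0.04 and 0.03.

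An interaction term over the 8 mice tested whether KD and KO mice differed in the change from young to older. Only the older KD mice had the disease label, and the older groups differed in age. Illness, age and genotype therefore cannot be told apart in this term. No member was called by edgeR (7.43% of all 15102 genes were), 9 had an unadjusted p under 0.05 (27.7% of all genes did), and DESeq2 called 3, E2f2, Rrm1 and Bub1b (14.6% of all genes). The 9 members at an unadjusted p under 0.05 were a smaller share than that of all genes. At this p, 2253 of all genes had values below 0 and 1932 above 0. Of the 9 members, 8 had values below 0, a change further towards lower levels in KD mice. They were E2f2 (-0.69 ± 0.19, edgeR adjusted p = 0.0676), Rrm1 (-0.43 ± 0.12, edgeR adjusted p = 0.0697), Ccnd2, Ccne1, Cdk2, Bub1b, Aurkb and Cdca8, and Mki67 was the 1 above 0 (0.50 ± 0.20, edgeR adjusted p = 0.156). The class medians were -0.43 for G1, -0.12 for S phase and 0.04 for mitotic genes, beside 0.00 for all genes. With 1 mouse left out they ranged from -0.50 to -0.25, -0.25 to -0.06 and -0.05 to 0.06, the G1 median being -0.25 and the S phase median -0.06 without the 39-day young KD mouse, the S phase median -0.25 without the 78-day and the mitotic median -0.05 without the 187-day sick KD mouse. A lower level of these members in sick KD but not in old KO mice therefore did not pass the test of the difference with edgeR.

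Other genes of the pathway were taken from 5 lists, and their counts stand beside the same shares of all genes as the members: 9.93% higher and 8.22% lower in old KO against sick KD mice, and 9.45% higher and 11.4% lower in sick KD against young KD mice. Over the 5 lists, 121 genes were tested, of which 12 were called higher and 4 lower in the first comparison and 2 higher and 18 lower in the second. At an unadjusted p under 0.05, 2666 of all 14656 genes were higher in the second. Of 14 CDK partners, CDK inhibitors and RB family genes, 12 were tested. Old KO against sick KD mice gave 3 called higher and 1 lower, and 1 was higher and 2 lower in sick KD against young KD mice. Cdk6, the kinase partner of D cyclins, was at 153 and 163 CPM in sick KD mice and 87.0 to 103 CPM in the others, and rose by 0.80 ± 0.11 against young KD mice (edgeR adjusted p = 0.00814). Btg2, an antiproliferative gene, was at 106 and 132 CPM in sick KD and 192 to 284 CPM in the others (-1.05 ± 0.19, edgeR adjusted p = 0.0158). The CDK inhibitor gene Cdkn1b fell as well, by 0.58 on the log2 scale, and Cdkn2c was higher in old KO against sick KD mice by 0.46. Cdk6 thus rose in sick KD against young KD mice while Btg2 and Cdkn1b fell.

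Of 17 E2F, DREAM and MYB/MYC regulators, 1 was higher (9.45% of all genes) and 3 lower (11.4%) in sick KD against young KD mice. Tfdp2, a DNA-binding partner of E2F proteins, was at 51.9 and 55.9 CPM in sick KD mice and 86.4 to 158 CPM in the others (-1.25 ± 0.20, edgeR adjusted p = 0.0125), and was the 1 called in old KO against sick KD mice (1.30). Mycn, at 0.569 to 1.51 CPM, fell by 1.20 on the log2 scale (edgeR adjusted p = 0.0455, DESeq2 adjusted p = 0.186), and Myc rose by 0.71, with 31.9 and 44.4 CPM in sick KD mice and 21.1 to 30.1 CPM in the others. Of 36 other replication genes, 5 were lower and 0 higher in sick KD against young KD mice by edgeR (1 was higher at an unadjusted p under 0.05 and 0 by DESeq2), and 4 were higher and 1 lower in old KO against sick KD mice, close to the 11.4% lower and 9.93% higher of all genes. Uhrf1, a reader of hemimethylated DNA, had 165 and 198 CPM in sick KD and 284 to 341 CPM in the others (-0.82 ± 0.14, edgeR adjusted p = 0.0139). Rpa1, a single-strand DNA binding protein, had 136 and 151 CPM in sick KD and 206 to 235 CPM in the others (-0.61 ± 0.12, edgeR adjusted p = 0.0192), while Rfc4, a clamp loader subunit, was lower in old KO than in sick KD mice by -0.44.

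Of 47 other mitosis genes, 7 were lower and 0 higher in sick KD against young KD mice by edgeR (2 were higher at an unadjusted p under 0.05 and 0 by DESeq2), and 4 were higher and 1 lower in old KO against sick KD mice, against 11.4% lower and 9.93% higher of all genes. Cdc25b, a phosphatase that activates CDK1, had 36.1 and 47.3 CPM in sick KD mice and 64.0 to 93.1 CPM in the others (-0.98 ± 0.19, edgeR adjusted p = 0.0179), and the condensin subunit Ncapd2 had 251 and 277 CPM and 375 to 422 CPM (-0.64 ± 0.12, edgeR adjusted p = 0.0165). Cdkn3 was the 1 lower in old KO mice (-0.52). Of 9 checkpoint and DNA damage genes, Chek1 was lower in sick KD against young KD mice (-0.51, edgeR adjusted p = 0.0499) and Brca2 lower in old KO against sick KD mice (-0.78, edgeR adjusted p = 0.0268).

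Some members share bases with other genes. In 11 members, among them Ccnd1, Ccnd2, Ccnd3, Ccne2, Cdk2 and Cdca8, an exon overlaps a gene on the opposite strand, and whether reads were counted by strand was not given in the sources used here. Ccnd3, Pcna, Ccnb1 and Ccnb2 have annotated pseudogene copies that could take or give reads. Values of these genes are uncertain to that degree.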

How the data were processed

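RNA-seq of whole BM was measured in 8 mice, grouped by their labels. Per the labels and the methods, the authors aligned TruSeq Stranded mRNA reads to mm10 with TopHat 2.0.10, processed them with Samtools and assigned them to Ensembl genes with HTSeq. The deposited values are whole read counts of each gene, not normalized. Neither the Ensembl release nor the strand setting is given in the sources used here. Reads that matched no counted gene feature (26.9% to 42.0% of uniquely aligned reads) stayed out of library sizes and tests.

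Symbols came from GENCODE M21 (40340 of 41214 identifiers). Counts were tested with edgeR 4.0.16 (R 4.3.3), TMM, filterByExpr by group and Benjamini-Hochberg adjustment over all tested genes (threshold 0.05). Each comparison was fitted on its own 4 mice and the interaction on all 8. The SE was |log2 fold change| over the root of F. Libraries held 26642067 to 42679114 counts, and differences between the 2 mice of a group limit precision. Class means used log2(CPM + 1), and levels were compared between genes per kb of merged exons.

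Alternatives were DESeq2 1.42.0, its size factors, no filter, all 8 mice in the fit, TMM without the 50 top genes, removal of GC, length and span trends (spline with 4 degrees of freedom), a pseudocount of 5, shorter promoter windows and leaving out each mouse. Scripts were tested on simulated data with 200 genes changed 4-fold. The members changed less than that, so the simulation does not show how well changes of their size are found. The text names all members, Gfi1, 4 promoters and, from each other list and direction, the 2 called genes that changed most in old KO against sick KD or sick KD against young KD mice. Members and lists were chosen with earlier results of these data known.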

Additional observations from a re-analysis of the deposited data

Results flagged for a closer look

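For 6 other cell cycle genes, the change between young and older mice differed between KD and KO mice in the interaction test of edgeR. They are 6 of 121 tested genes on these lists (4.96%), fewer in proportion than the 7.43% called among all genes. The interaction log2 fold change was 0.76 for Cdk6 (edgeR adjusted p = 0.0218) and 0.61 for Cdkn3 (0.0499), where the change went further upwards in KD mice. It was -1.11 for Btg2 (edgeR adjusted p = 0.0362), -0.61 for Rpa1 (0.0389), -0.54 for Ncapd2 (0.0468) and -0.52 for Clspn (0.0374), where the change went further downwards in KD mice. In old KO against young KO mice the same genes had log2 fold changes between -0.22 (Cdkn3) and 0.07 (Btg2), none of them called. Only the older KD mice had the disease label, so illness and genotype cannot be told apart in the interaction test. No member was called in the interaction test by edgeR (9 had an unadjusted p under 0.05, and DESeq2 called 3). Clspn, which encodes a replication checkpoint adaptor, falls outside the rule for named genes and was named after its value was seen.

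Reads that matched no counted gene feature enter no comparison. They made up 42.0% of uniquely aligned reads in the 187-day and 38.8% in the 78-day sick KD mouse, above the 26.9% to 33.8% of the other mice. Their relation to the members' levels was not tested.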

How the results depend on the processing

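In old KO against sick KD mice, the 4 members called higher became 8 with DESeq2, 8 without a filter on low counts and 10 with all 8 mice in the fit, and 0 to 5 when 1 mouse was left out. The 0 members called lower became 1 with DESeq2 and 1 with all 8 mice. In sick KD against young KD mice, the 8 called lower became 14 with all 8 mice and 0 to 10 when 1 mouse was left out, and the 0 called higher became 1 (Mki67) with GC, length and span trends removed and 0 to 1 when 1 mouse was left out. In the interaction, the 0 called lower became 3 with DESeq2, 2 without a filter, 2 with trends removed and 0 to 2 when 1 mouse was left out, and the 0 called higher 0 to 1. Ccne2 turned from -0.02 to 0.38 in old KO against sick KD mice with trends removed. The cause of these changes was not tested.

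Over all genes, the number called lower in old KO against sick KD mice went from 1189 to 1849 without a filter, 1996 with all 8 mice and 1917 with trends removed, and the number called higher from 1437 to 2476 without a filter and 2204 with all 8 mice. The number called higher in sick KD against young KD mice went from 1385 to 2387 with trends removed. In old KO against young KO mice, 48 called higher became 170 with DESeq2, 414 without a filter and 28 with all 8 mice, and 90 called lower became 213 and 382 with the first 2 of these. In young KO against young KD mice, 3 higher and 3 lower became 15 and 11 with DESeq2, 55 and 64 without a filter and 1 and 2 with all 8 mice. In the interaction, 469 called higher became 800 with DESeq2, 1142 without a filter and 949 with trends removed, and 653 called lower became 1151, 1777 and 980. With 1 mouse left out, the numbers called higher and lower were 674 to 1485 and 547 to 1310 in old KO against sick KD, 455 to 1630 and 861 to 1771 in sick KD against young KD, 7 to 176 and 10 to 131 in old KO against young KO, 1 to 4 and 1 to 5 in young KO against young KD mice, and 51 to 735 and 53 to 879 in the interaction. Under settings with all mice, 1120 of the members' log2 fold changes kept their call, or stayed uncalled within their SE of the main value. Those that kept their call count among the 1120 however far they moved. Another 26 stayed uncalled and moved further than their SE, and 41 became called. The 1 that lost its call was Ccne1 in old KO against sick KD mice, with trends removed. Of the class medians, 5 moved by more than the spread between mice under such settings and 21 with 1 mouse left out. Members called in the main fits lost their call in most of the fits with 1 mouse left out, and none kept it in all of them. Some uncalled members became called in such a fit. An arm left with 1 mouse is assumed to vary like the other. Ccne2 was the 1 member whose direction reversed with a call in either setting. Sign changes without a call count as moved or unmoved. No paired analysis was possible because each mouse has its own number in the labels, never used in another group. Depth limits Ccnd1 most, with 129 to 347 counts in a mouse.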
